A study of Mus musculus with 34 samples.

Results

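The subject here is a set of 10 cell cycle genes, of 21631 protein-coding genes on the autosomes and the X chromosome, and the histone marks around them in mouse microglia. The genes were chosen by name and not by a measured value: Ccnd1 for G1, Mcm2, Mcm5 and Pcna for S phase, and Ccna2, Ccnb1, Cdk1, Plk1, Top2a and Mki67 for the passage from S phase and G2 into mitosis. The values come from ULI-NChIP-seq, chromatin immunoprecipitation on native chromatin of few cells, of hippocampal microglia from control mice (Ctrl) and from mice that the labels call FGR, in a series about growth restriction in the uterus. Both groups carried Tmem119-tdTomato+/-, a reporter that makes microglia fluoresce. Replicates 1 to 3 are labelled as 3 weeks old, and the label of replicate 4 states no age. H3K4me3, H3K9ac, H3K27ac and H3K9me3 were each profiled in 4 libraries per group. How FGR was brought about, and whether a replicate is 1 animal or a pool, is not given in the sources used here, so each p-value reflects the spread among these libraries, which may be technical.

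Cells enter the cycle when mitogens induce D-type cyclins, which switch on their kinases and release E2F factors from RB-family proteins. E2F factors turn on genes of DNA replication, while genes needed in G2 and mitosis are held back by the DREAM complex and later turned on by B-MYB and FOXM1, acting through CCAAT boxes and the cell cycle homology region (CHR). Microglia proliferate strongly in the first weeks after birth and only rarely in the healthy adult brain. H3K4me3 marks active and poised promoters, H3K9ac and H3K27ac mark active promoters and enhancers, and H3K9me3 marks heterochromatin.

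Promoters of 8 of the 10 genes were matched in RefSeq (GRCm38.p6); Ccna2 and Ccnd1 were not matched. Of these, 5 are shown because the results below turn on them or set them apart: Plk1 and Cdk1 moved in opposite directions in acetylation, Pcna had the longest coverage among the S-phase genes, and Mcm5 and Mki67 stand for either class. Each runs from 250 bases before the gene start to 50 after it, 5′ to 3′ on the strand of the gene. Capitals mark 3 motifs searched on both strands, each written as found on the printed strand: the CCAAT box (CCAAT or ATTGG), the CHR (TTTGAA or TTCAAA) and an E2F-type heptamer (TT, then 2 letters each C or G, then CGC, or its reverse complement).
Mcm5 (chr8:75109259-75109558, plus strand): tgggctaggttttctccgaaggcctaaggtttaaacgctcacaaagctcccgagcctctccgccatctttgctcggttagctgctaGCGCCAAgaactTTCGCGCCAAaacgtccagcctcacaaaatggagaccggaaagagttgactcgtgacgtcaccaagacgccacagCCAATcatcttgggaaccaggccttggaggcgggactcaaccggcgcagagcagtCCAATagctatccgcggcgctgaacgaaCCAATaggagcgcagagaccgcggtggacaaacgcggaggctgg
Pcna (chr2:132253131-132253430, minus strand): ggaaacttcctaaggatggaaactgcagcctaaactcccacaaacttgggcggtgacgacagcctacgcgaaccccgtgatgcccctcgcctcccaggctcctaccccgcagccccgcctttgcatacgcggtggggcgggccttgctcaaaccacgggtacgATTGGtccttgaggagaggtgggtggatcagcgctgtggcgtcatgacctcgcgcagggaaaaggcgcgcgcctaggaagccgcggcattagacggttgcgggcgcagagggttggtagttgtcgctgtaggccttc
Cdk1 (chr10:69352863-69353162, minus strand): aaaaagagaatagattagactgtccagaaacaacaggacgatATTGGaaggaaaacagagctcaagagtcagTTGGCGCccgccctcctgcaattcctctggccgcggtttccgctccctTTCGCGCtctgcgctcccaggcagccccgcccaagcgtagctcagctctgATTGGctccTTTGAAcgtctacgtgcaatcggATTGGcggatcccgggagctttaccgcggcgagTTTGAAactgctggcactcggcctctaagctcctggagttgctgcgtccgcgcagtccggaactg
Plk1 (chr7:122159185-122159484, plus strand): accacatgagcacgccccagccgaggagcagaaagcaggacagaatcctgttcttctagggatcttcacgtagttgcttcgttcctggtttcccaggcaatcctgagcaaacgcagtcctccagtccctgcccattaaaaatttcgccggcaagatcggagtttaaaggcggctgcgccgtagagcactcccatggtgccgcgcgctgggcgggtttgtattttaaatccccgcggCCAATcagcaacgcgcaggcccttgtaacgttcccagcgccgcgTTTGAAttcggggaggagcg
Mki67 (chr7:135716330-135716629, minus strand): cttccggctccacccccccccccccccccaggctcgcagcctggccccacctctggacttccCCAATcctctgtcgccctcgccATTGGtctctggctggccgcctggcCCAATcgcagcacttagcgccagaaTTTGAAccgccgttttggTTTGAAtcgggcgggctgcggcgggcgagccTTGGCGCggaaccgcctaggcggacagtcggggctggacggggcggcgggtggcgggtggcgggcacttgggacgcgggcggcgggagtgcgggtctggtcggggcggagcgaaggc

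A CCAAT box was present in all 8 matched promoters, against 37.4% of the 32851 promoters in the table. The CHR was found in 5 of the 8, at Mcm2, Cdk1, Plk1, Top2a and Mki67, against 17.9% of all promoters. An E2F-type heptamer was found in 4, at Mcm5, Ccnb1, Cdk1 and Mki67, against 9.57%. Both CCAAT and CHR occur in 6.95% of all promoters. Mcm5 had 3 E2F-type words, whose first bases lay at -164, -152 and -149 from the gene start, of which the last pair overlap, and no CHR. In Cdk1 the CHR stood at -71 and -15, in Mki67 at -116 and -98, and in Plk1 at 31, just inside the gene, behind a CCAAT box at -14. At Ccnb1 an E2F-type word overlapped a CCAAT box. These matches describe letters and were not tested as binding sites.

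The measure for each gene and library was covered length, the summed length of the called peaks, in kb, that lay no more than 2.5 kb from a gene end (mm10), in a window of 10 kb for each gene except Pcna, whose ends lie so close that its window was 8.895 kb. Peak lists hold no reads, so sequencing depth is unknown. The groups differed in how peaks were called at every active mark. The lowest local background of any list lay between 2.347 and 3.578 in Ctrl and between 0.523 and 1.163 in FGR over the 3 active marks. FGR lists were also longer, with at least 43175 peaks for H3K4me3 where no Ctrl list passed 18391. This gap in background and list length cannot be told apart from the groups. Across genes, FGR H3K4me3 libraries resembled Ctrl H3K9ac (mean r = 0.908 over 21631 genes) more than Ctrl H3K4me3 (0.822). Ctrl H3K4me3 libraries in turn resembled FGR H3K4me3 (0.822) more than FGR H3K9ac (0.650). FGR H3K9ac libraries resembled FGR H3K4me3 (0.792) more than Ctrl H3K9ac (0.757). The mean r of FGR H3K4me3 with Ctrl H3K27ac was 0.830. Libraries of the same group and mark resembled each other, with a lowest r of 0.861 within Ctrl H3K4me3. Whether some H3K4me3 and H3K9ac libraries carry each other's mark label was not tested. If they did, the values of those marks would change meaning; they are given under the deposited labels. All 7 microglia markers had a peak in every library of the active marks, apart from 1 in FGR H3K9ac. For H3K9ac the 7 microglia markers summed to 37.9 to 39.3 kb in Ctrl and 22.3 to 24.8 kb in FGR. The 5 neuron markers went from 0 to 0.709 kb in Ctrl to 3.37 to 5.03 kb in FGR, where 2 had a peak in every library while Snap25 and Gad1 were at 0. The 4 endothelial and mural markers went from 1.68 to 2.13 kb in Ctrl to 2.94 to 6.14 kb in FGR. Those of astrocytes overlapped between groups. For H3K27ac the microglia markers summed to 61 to 62 kb in Ctrl and 33 to 38.7 kb in FGR, and for H3K4me3 to 15.3 to 18.3 and 34.7 to 39.6 kb. The part of these cells in the results was not tested. A list from many cells cannot tell more cells with a mark from more mark per cell.

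H3K4me3 coverage rose in FGR at all 10 genes (limma, adjusted p under 0.05), where 95.5% of the 14043 genes tested were called higher and 0% lower. The groups did not overlap at any of the 10, as at 93% of all genes tested. The median difference was 0.917 kb over the 10 genes and 0.887 kb over all genes tested, so the set moved with the genome. After quantile normalization, which removes such a common shift, Pcna and Ccnd1 were still called higher (15.8% of all genes were), Top2a was called lower (24.2% were), and the other 7 passed in neither direction.

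H3K9ac split the set. Ccnd1, Mcm2 and Plk1 rose, Pcna, Cdk1 and Top2a fell, and Mcm5, Ccna2, Ccnb1 and Mki67 did not pass. Of the 15605 genes tested, 28.5% were called higher and 30% lower, so 3 and 3 of 10 lie close to the background. Ranges did not overlap at the 3 higher genes or at Pcna and Top2a among the lower ones, as they did not at 25.3% of all genes in the higher and 28.8% in the lower direction. H3K27ac fell at Pcna, Ccnd1, Cdk1, Mcm2 and Ccna2, and Mcm5, Top2a, Mki67 and Ccnb1 did not pass. Among the 11876 genes tested, 81.6% were called lower and 0.185% higher. FGR lay below Ctrl without overlap at 4 of the 10 genes, all of them among the 5 called lower, against 74% of all genes tested. After quantile normalization Pcna and Ccnd1 were still called lower (11.3% of all genes were) and the other 3 lower calls were lost. All 10 genes passed the filter of a peak in at least 2 libraries for each active mark. Plk1 met it for H3K27ac only through FGR, the group with the longer peak lists, since only 1 Ctrl list had a peak there. Its higher value was therefore in part set by the filter, and it is given below as a description.

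**Figure D1:**
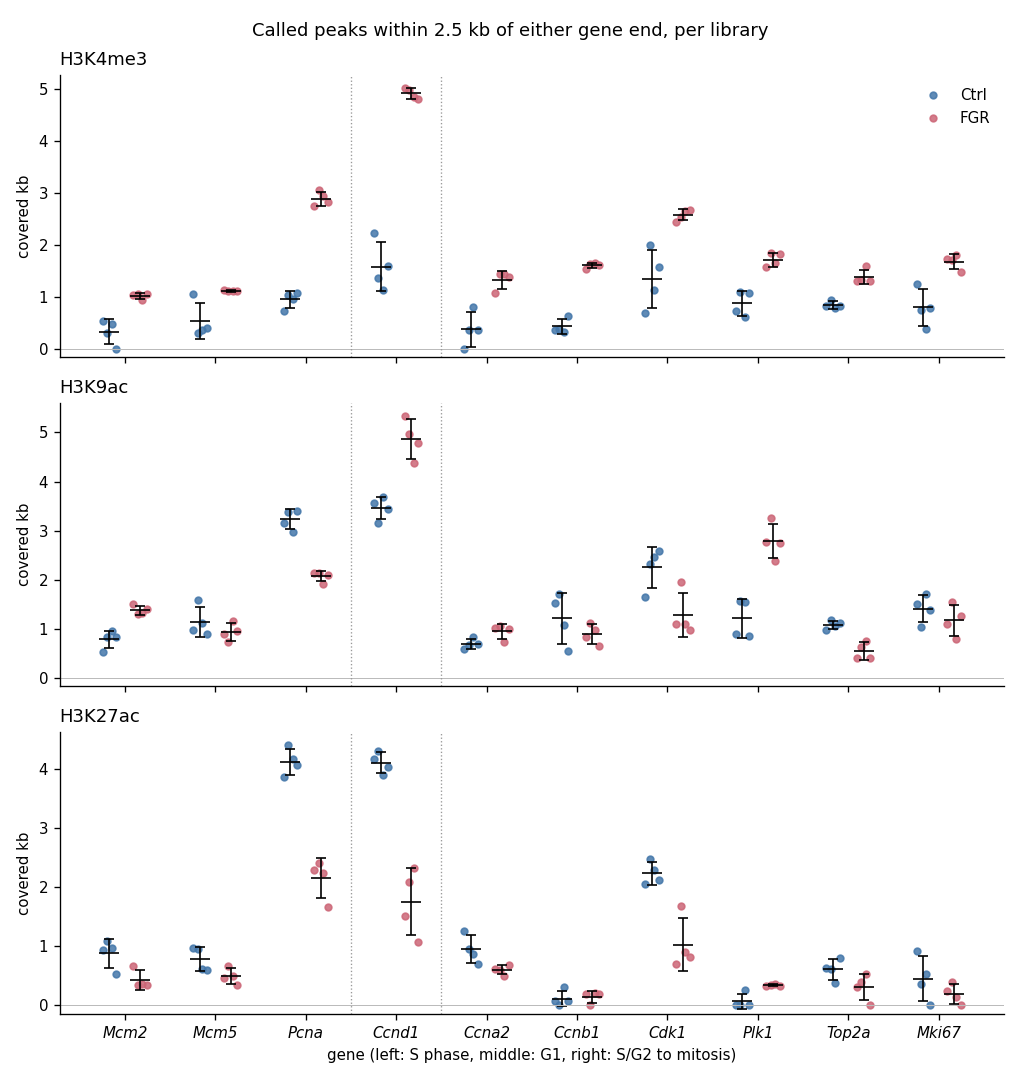
Peak coverage in kb near the ends of the 10 genes, 1 panel per active mark; each dot is a library, blue for Ctrl and red for FGR, and black bars give the mean ± SD of 4 libraries. In the H3K4me3 panel the red dots lie above the blue ones at every gene, in the H3K27ac panel the red dots lie lower at Pcna, Ccnd1 and Cdk1, and at Plk1 3 of 4 Ctrl libraries sit at 0.

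Ccnd1 encodes cyclin D1, the partner of CDK4 and CDK6 that carries mitogen signals into the cycle (chromosome 7, 144929931 to 144939831). It was the most covered gene of the set in 7 of the 8 H3K4me3 libraries. H3K4me3 covered 2.23, 1.36, 1.14 and 1.59 kb in Ctrl replicates 1 to 4 and 5.02, 4.99, 4.85 and 4.8 kb in FGR. Every FGR library was far above every Ctrl library, and the difference of 3.33 ± 0.209 kb (SE; adjusted p = 1.89e-06) was larger than at 99.3% of all genes tested. In FGR a single peak of 6096 to 6106 bp ran over the upper end of the gene in each library, where Ctrl lists held a peak of at most 1804 bp or shorter pieces. The merged region of all libraries was chr7:144937683-144943809, over that end and the sequence beyond it. In FGR the peak ran on past the edge of the 2.5 kb window. The FGR coverage at this end, 4.62 to 4.65 kb, was therefore cut by the window in each library.

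H3K9ac at Ccnd1 covered 3.56, 3.15, 3.69 and 3.45 kb in Ctrl and 5.34, 4.96, 4.38 and 4.78 kb in FGR, with a difference of 1.4 ± 0.205 kb (adjusted p = 0.000519). H3K27ac covered 4.17, 4.32, 3.9 and 4.05 kb in Ctrl and 1.51, 2.1, 2.33 and 1.08 kb in FGR, and fell by 2.36 kb (SE 0.248; adjusted p = 2.98e-05). Both marks separated the groups without overlap, in opposite directions. Most of the H3K27ac drop was at the upper end, from 3.07 ± 0.321 to 1.09 ± 0.445 kb (SD, n = 4), with a smaller one at the lower end, from 1.04 ± 0.151 to 0.662 ± 0.127 kb. The window around the lower end reaches LTO1, whose nearest end lies 817 bp away, so peaks there may belong to either gene.

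Mcm2 and Mcm5 encode subunits of the MCM2-7 helicase, which is loaded on origins in G1 and unwinds DNA in S phase. Mcm2 (chromosome 6, 88883474 to 88898780, minus strand) carried H3K4me3 over 0.542, 0.317, 0.477 and 0 kb in Ctrl and 1.04, 1.06, 0.94 and 1.06 kb in FGR. The FGR values were close together and Ctrl replicate 4 had no peak there, with a difference of 0.693 ± 0.119 kb (adjusted p = 0.000459). None of the Ctrl peaks covered the start base of Mcm2, whereas all 4 FGR peaks did, reaching 0.249 to 0.387 kb upstream. The merged region was chr6:88898090-88899167.

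H3K9ac at Mcm2 was 0.54, 0.848, 0.953 and 0.832 kb in Ctrl and 1.5, 1.3, 1.33 and 1.41 kb in FGR, a rise in covered length of 0.592 ± 0.112 kb (adjusted p = 0.00195) without overlap. The summit pileup of the strongest H3K9ac peak there was lower in FGR, at 23 to 28 against 38 to 48 in Ctrl. Its local background was 0.523 to 0.705 in FGR and 3.51 to 4.12 in Ctrl. H3K27ac coverage fell, from 0.936, 1.09, 0.967 and 0.53 kb in Ctrl to 0.676, 0.34, 0.367 and 0.346 kb in FGR (adjusted p = 0.0151). FGR replicate 1 lay above Ctrl replicate 4, so the ranges overlap, and after quantile normalization the difference was 0.0745 kb with an adjusted p of 0.738.

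Mcm5 (chromosome 8, 75109468 to 75128439, plus strand) had H3K4me3 over 1.07, 0.314, 0.378 and 0.407 kb in Ctrl and 1.14, 1.11, 1.12 and 1.11 kb in FGR. Ctrl replicate 1 stood close to the FGR libraries and the other Ctrl libraries far below; the difference of 0.58 ± 0.159 kb passed (adjusted p = 0.00657) with the largest adjusted p of the set for this mark. In FGR the H3K4me3 calls left the start base itself uncovered in all 4 libraries, with 0.563 to 0.603 kb upstream and 0.512 to 0.576 kb inside the gene, in the region chr8:75108731-75110108. H3K9ac at Mcm5 ranged from 0.906 to 1.59 kb in Ctrl and 0.743 to 1.17 kb in FGR (adjusted p = 0.283). H3K27ac covered 0.97, 0.954, 0.621 and 0.594 kb in Ctrl and 0.465, 0.669, 0.496 and 0.344 kb in FGR, with overlapping ranges and an adjusted p of 0.0574. That value moved to 0.0388 with a window of 1 kb, and it was 0.042, 0.0357 and 0.0395 without Ctrl replicate 3, FGR replicate 2 and Ctrl replicate 4.

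Pcna encodes the sliding clamp that tethers DNA polymerases in S phase (chromosome 2, 132249286 to 132253180, minus strand). H3K4me3 covered 0.732, 1.05, 0.962 and 1.08 kb in Ctrl and 2.75, 3.06, 2.94 and 2.82 kb in FGR. All FGR libraries exceeded all Ctrl libraries, and the difference of 1.94 ± 0.103 kb (adjusted p = 9.85e-07) had the smallest p of the set. At the start, Ctrl peaks lay inside the gene with 0 kb upstream, and FGR peaks added 0.551 to 0.74 kb upstream in the region chr2:132252014-132253920. That upstream stretch reaches into Cds2, whose nearest end is 158 bp from Pcna, and the lower end lies 227 bp from Tmem230.

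The covered length of both acetylation marks fell at Pcna. H3K9ac covered 3.15, 3.38, 2.98 and 3.41 kb in Ctrl and 2.15, 2.14, 1.92 and 2.09 kb in FGR, with every FGR library under every Ctrl library (adjusted p = 9.45e-05). H3K27ac covered 3.87, 4.41, 4.17 and 4.07 kb in Ctrl and 2.3, 2.41, 2.25 and 1.66 kb in FGR, again without overlap (adjusted p = 1.38e-05). The loss was spread over both ends, with H3K27ac at the start going from 2.16 ± 0.21 to 1.09 ± 0.179 kb and at the other end from 1.97 ± 0.0205 to 1.07 ± 0.17 kb (SD, n = 4). In each Ctrl library an H3K27ac peak of 1918 to 2427 bp crossed the start base, and in FGR the calls stopped on either side of it in all 4. At the Pcna start, the authors' fold enrichment of the strongest H3K9ac peak over local background went the other way, with 13.7 to 14.4 for Ctrl libraries and 26.3 to 36.2 for FGR ones. By that fold it ranked in the top 3.9% to 4.9% of its list in Ctrl and 0.62% to 3.37% in FGR, lists that differ in length and background.

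Ccna2 encodes cyclin A2, which drives CDK2 in S phase and CDK1 in G2 (chromosome 3, 36564865 to 36573038). H3K4me3 covered 0, 0.36, 0.813 and 0.36 kb in Ctrl and 1.08, 1.44, 1.44 and 1.38 kb in FGR, a difference of 0.952 ± 0.166 kb (adjusted p = 0.000517). Ctrl replicate 1 had no peak, and no Ctrl library reached the lowest FGR one. The calls lay inside the gene, in chr3:36571299-36572737, short of the upper end, which is 104 bp from the nearest end of Bbs7.

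H3K9ac at Ccna2 ran from 0.594 to 0.838 kb in Ctrl and from 0.728 to 1.06 kb in FGR and did not pass (adjusted p = 0.0707). FGR replicate 3 was the only FGR library inside the Ctrl range, and without it the adjusted p was 0.0182. Within 1 kb of the gene ends the direction turned, with 0.354 kb less in FGR (a difference of -0.354 kb, adjusted p = 0.00201). H3K27ac covered 1.27, 0.952, 0.88 and 0.704 kb in Ctrl and 0.623, 0.603, 0.498 and 0.681 kb in FGR (adjusted p = 0.0293). The ranges were separate by a narrow gap, and the call was lost without Ctrl replicate 1 or 2 or FGR replicate 1 or 3 (adjusted p from 0.0521 to 0.0785). After quantile normalization its difference was 0.229 kb, with an adjusted p of 0.255.

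Ccnb1 encodes cyclin B1, the activating partner of CDK1 at the entry into mitosis (chromosome 13, 100778739 to 100786486, minus strand). H3K4me3 covered 0.378, 0.396, 0.334 and 0.642 kb in Ctrl and 1.54, 1.63, 1.66 and 1.61 kb in FGR, a difference of 1.17 ± 0.0842 kb (adjusted p = 3.5e-06). Short Ctrl peaks of 275 to 396 bp stood beside 1 peak of 1393 to 1515 bp over the start in every FGR library, within chr13:100785588-100787102. H3K9ac varied widely in Ctrl, from 0.545 kb in replicate 4 to 1.72 kb in replicate 2, and lay between 0.656 and 1.13 kb in FGR (adjusted p = 0.275, and 0.0382 without Ctrl replicate 4). H3K27ac was at most 0.304 kb in Ctrl and 0.205 kb in FGR (adjusted p = 0.788). Ccnb1 thus had little H3K27ac in either group, at percentile 3.28 of all genes tested in Ctrl and 9.41 in FGR.

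Cdk1 encodes the kinase that drives mitosis (chromosome 10, 69335146 to 69352912, minus strand). H3K4me3 covered 0.69, 2, 1.13 and 1.57 kb in Ctrl and 2.45, 2.54, 2.65 and 2.68 kb in FGR, a difference of 1.23 ± 0.246 kb (adjusted p = 0.00115). Ctrl values were spread, and all lay below the FGR range. In FGR a single peak of 2446 to 2678 bp crossed the start in every library, reaching 1.94 to 2.2 kb into the gene, within chr10:69350717-69353416.

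H3K9ac at Cdk1 was 1.65, 2.32, 2.46 and 2.59 kb in Ctrl and 1.1, 1.96, 1.1 and 0.985 kb in FGR, and fell by 0.969 kb (SE 0.266; adjusted p = 0.0125). FGR replicate 2 stood inside the Ctrl range, away from the other FGR libraries. The loss of coverage lay deeper in the gene: within 1 kb of the ends the difference was -0.017 kb (adjusted p = 0.936). As at Pcna, the authors' fold enrichment of the strongest H3K9ac peak near the start was higher in FGR, at 9.04 to 13.8 against 4.87 to 7.31 in Ctrl. Its local background was 0.523 to 0.659 in FGR and 2.56 to 3.67 in Ctrl. H3K27ac covered 2.05, 2.48, 2.3 and 2.12 kb in Ctrl and 0.707, 1.69, 0.906 and 0.819 kb in FGR, without overlap (adjusted p = 0.000534). Each Ctrl library had 1 H3K27ac peak of 2047 to 2645 bp inside the gene, and FGR had separate short calls, the strongest near the start being 271 to 360 bp wide. The narrowest H3K27ac peak that a list held anywhere measured 267 to 284 bp in Ctrl but 148 to 151 bp in FGR, and its part in such short calls was not tested. This drop did not pass with a window of 1 kb (-0.3 kb, adjusted p = 0.0949) or after quantile normalization (-0.352 kb, adjusted p = 0.263).

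Plk1 encodes polo-like kinase 1, which acts in centrosome maturation, spindle assembly and mitotic exit (chromosome 7, 122159435 to 122169884, plus strand). It was the only one of the 6 mitotic genes called higher for H3K9ac. H3K4me3 covered 0.743, 1.09, 0.624 and 1.08 kb in Ctrl and 1.57, 1.85, 1.65 and 1.82 kb in FGR, a difference of 0.838 ± 0.127 kb (adjusted p = 0.000224). In Ctrl the calls lay on both sides of the start base or on 1 side only and never over it, and in FGR a single peak crossed it in all 4 libraries, in chr7:122158468-122160143.

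H3K9ac at Plk1 covered 0.9, 1.58, 1.55 and 0.851 kb in Ctrl and 2.77, 3.25, 2.39 and 2.76 kb in FGR. No library of one group entered the range of the other, and the difference of 1.57 ± 0.234 kb (adjusted p = 0.000569) exceeded that of 94.9% of all genes tested. The gene went from percentile 47 of H3K9ac coverage among genes tested in Ctrl to percentile 89.9 in FGR. The start alone held 1.22 ± 0.399 kb in Ctrl and, in FGR, 1.88 ± 0.25 kb (SD, n = 4), and with this end alone the difference of 0.663 kb still passed (adjusted p = 0.0169). The rest came from the 3′ end, which was at 0 kb in every Ctrl library and at 0.701, 1.35, 0.861 and 0.719 kb in FGR. That end lies 9 bp from Ern2, so these calls may belong to either gene.

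The pileup at the Plk1 H3K9ac summit, the number of stacked fragments solved from the deposited fold and −log10 p, ranged from 33 to 40 in Ctrl and from 29 to 37 in FGR, and these overlap. It was set against a local background of 3.98 to 6.11 in Ctrl but of only 0.523 to 0.659 in FGR. H3K27ac at Plk1 was 0, 0, 0.267 and 0 kb in Ctrl and 0.331, 0.347, 0.36 and 0.33 kb in FGR, in chr7:122158837-122159307 just upstream of the start. The difference was 0.275 ± 0.0999 kb. The fit placed Plk1 among its 22 genes called higher (adjusted p = 0.027), but this p is no independent test, because the gene entered the fit through its FGR lists. Its pileup was 15 in the single Ctrl peak and 8 to 10 in FGR, against backgrounds of 6.13 and 0.621 to 0.767. The adjusted p lay above 0.05 without Ctrl replicate 1, 2 or 4 or FGR replicate 3 (0.052 to 0.0698) and with the replicate number as a block (0.0544).

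**Figure D2:**
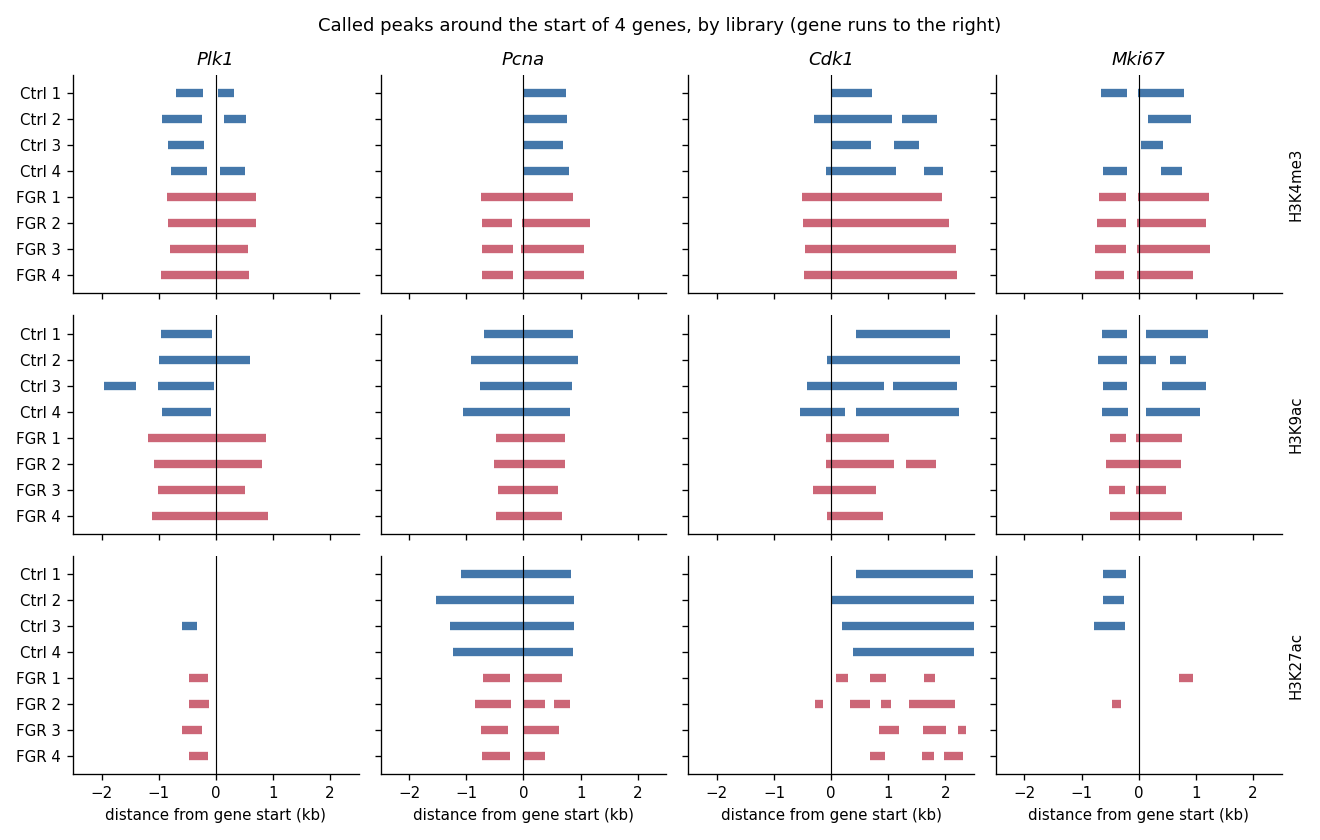
Called peaks of the 3 active marks around the start of Plk1, Pcna, Cdk1 and Mki67, as distance from the gene start in kb with the gene running to the right; each row is a library, blue for Ctrl and red for FGR. H3K4me3 peaks of FGR cross the start of all 4 genes, while for H3K27ac the long Ctrl peaks of Pcna and Cdk1 give way to short separate FGR calls and Plk1 has a call upstream of the start in all 4 FGR libraries and 1 Ctrl library.

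Top2a encodes topoisomerase II alpha, which untangles sister chromatids (chromosome 11, 98992947 to 99024199, minus strand). H3K4me3 covered 0.832, 0.948, 0.785 and 0.823 kb in Ctrl and 1.32, 1.33, 1.6 and 1.31 kb in FGR, the smallest difference of the set for this mark (0.546 ± 0.0864 kb; adjusted p = 0.000287). The groups were separate, but the rise was smaller than that of most genes, at percentile 22.8, and quantile normalization turned it into -0.413 kb (adjusted p = 0.00842). The merged region was chr11:99023444-99025056. H3K9ac covered 0.986, 1.18, 1.07 and 1.12 kb in Ctrl and 0.418, 0.634, 0.765 and 0.405 kb in FGR, a drop without overlap (adjusted p = 0.00313).

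The Top2a H3K9ac loss was upstream of the start, where 0.503 to 0.622 kb were covered in Ctrl and 0.025 to 0.304 kb in FGR. H3K27ac covered 0.639, 0.61, 0.382 and 0.811 kb in Ctrl and 0.316, 0.4, 0.527 and 0 kb in FGR (adjusted p = 0.0712). It passed with lists of equal length (adjusted p = 0.000542), with the stricter peak threshold (0.00611), and without Ctrl replicate 3 (0.0376) or FGR replicate 3 (0.0424).

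Mki67 encodes Ki-67, a protein of the mitotic chromosome surface used as a label of cycling cells (chromosome 7, 135689784 to 135716450, minus strand). H3K4me3 covered 1.26, 0.76, 0.389 and 0.796 kb in Ctrl and 1.73, 1.71, 1.81 and 1.49 kb in FGR, a difference of 0.882 ± 0.17 kb (adjusted p = 0.000932). The lowest FGR library was above the highest Ctrl library. The merged region at the start, chr7:135715207-135716476, was called in all 8 libraries and covered the start base in all 4 FGR libraries and in 1 Ctrl library.

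H3K9ac at Mki67 was 1.51, 1.05, 1.72 and 1.39 kb in Ctrl and 1.1, 1.56, 0.808 and 1.26 kb in FGR, with mixed ranges (adjusted p = 0.299). H3K27ac was low in both groups, at 0.915, 0.368, 0.528 and 0 kb in Ctrl and 0.246, 0.405, 0.149 and 0 kb in FGR (adjusted p = 0.222). Replicate 4 of either group had no call. Without Ctrl replicate 4 the H3K27ac difference was -0.404 kb (adjusted p = 0.0458), and it also passed with lists of equal length (0.0469) and the stricter threshold (0.0496).

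At the summits of all 10 genes, H3K4me3 pileups were 13 to 44 in Ctrl and 39 to 73 in FGR. H3K9ac pileups were 15 to 75 and 8 to 59, and those of H3K27ac 11 to 101 and 6 to 27. FGR pileups were thus higher at the median for H3K4me3 (50.5 against 22.5) and lower for H3K9ac (20 against 33) and H3K27ac (10 against 32). The start base of the 8 genes with a known strand was inside an H3K4me3 call at 1 or 2 genes per Ctrl library and at 6 or 7 per FGR library, where 18.8% to 21.1% and 42.2% to 44.5% of 17274 genes with a strand had it covered. For H3K9ac the counts were 2 to 5 in Ctrl and 7 or 8 in FGR, against 39.2% to 40.7% and 46.8% to 50.8% of all. For H3K27ac they were 1 or 2 in Ctrl and 0 in every FGR library, against 36.8% to 38.4% and 10.7% to 14% of all. Each count moved in the direction of all genes, and the difference between the 8 genes and the rest was not tested.

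**Figure D3:**
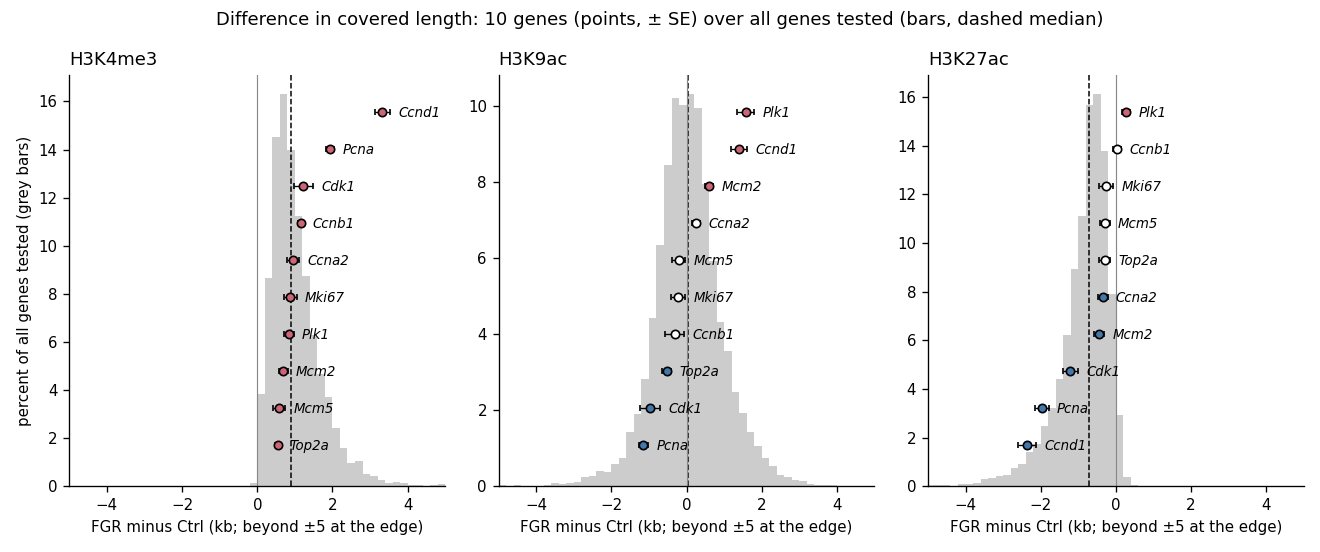
FGR minus Ctrl covered kb for the 10 genes (points with SE; red called higher, blue called lower, white not called; the Plk1 H3K27ac point entered the fit only through FGR lists), with the distribution over all genes tested as grey bars in percent and its median as a dashed line. Points are spread in height for legibility only. In the H3K4me3 panel most points lie near the dashed line with Ccnd1 and Pcna to its right, and in the H3K27ac panel Plk1 lies at the right edge of the bars.

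S-phase and mitotic genes were compared as medians over the 3 and 6 genes in each library, as a description only. For H3K4me3 the S-phase median lay at 0.317 to 0.732 kb in Ctrl and at 1.11 to 1.14 kb in FGR, and the mitotic median 0.705 to 0.854 kb and 1.55 to 1.67 kb. The mitotic median was the higher one in 3 of 4 Ctrl libraries and in all 4 FGR libraries, but by mean the classes of FGR nearly met, at 1.68 ± 0.0435 kb for S phase and 1.72 ± 0.0804 kb for mitosis (SD, n = 4), with S phase higher in FGR replicate 1. Ctrl means were 0.611 ± 0.123 and 0.783 ± 0.139 kb. Averaged over libraries, the mitotic median went from 0.771 ± 0.0724 to 1.61 ± 0.0665 kb and the S-phase median from 0.483 ± 0.178 to 1.12 ± 0.0141 kb (SD, n = 4). In each FGR library the S-phase median is the value of Mcm5, so the order by median there rests on 1 gene.

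For H3K9ac the order of the classes depended on the summary used. By mean, S phase was above mitosis in all 4 Ctrl libraries (1.73 ± 0.158 against 1.32 ± 0.136 kb) and in 3 of 4 FGR libraries (1.47 ± 0.051 against 1.28 ± 0.216 kb). The S-phase median was below the mitotic one in 3 of 4 Ctrl libraries and above it in 3 of 4 FGR libraries. Ctrl means of the medians were 1.15 ± 0.305 kb for S phase and 1.23 ± 0.175 kb for mitosis, closer than their spread, and FGR means were 1.39 ± 0.0896 and 1.07 ± 0.195 kb. The FGR S-phase median is the value of Mcm2 in each library, so the order by median rests on 1 gene. H3K27ac was longer at S-phase genes in all 8 libraries, by median and by mean. The mean over S-phase genes ran from 1.73 to 2.15 kb in Ctrl and from 0.783 to 1.15 kb in FGR, and that over mitotic genes 0.618 to 0.826 kb and 0.337 to 0.573 kb. Without Pcna, whose window is shared with Cds2 and Tmem230, the S-phase mean stood at 0.832 ± 0.204 kb in Ctrl and at 0.463 ± 0.0973 kb in FGR (SD, n = 4), against 0.739 ± 0.0888 and 0.439 ± 0.0994 kb for mitosis. The classes then differed by less than the spread between libraries.

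**Figure D4:**
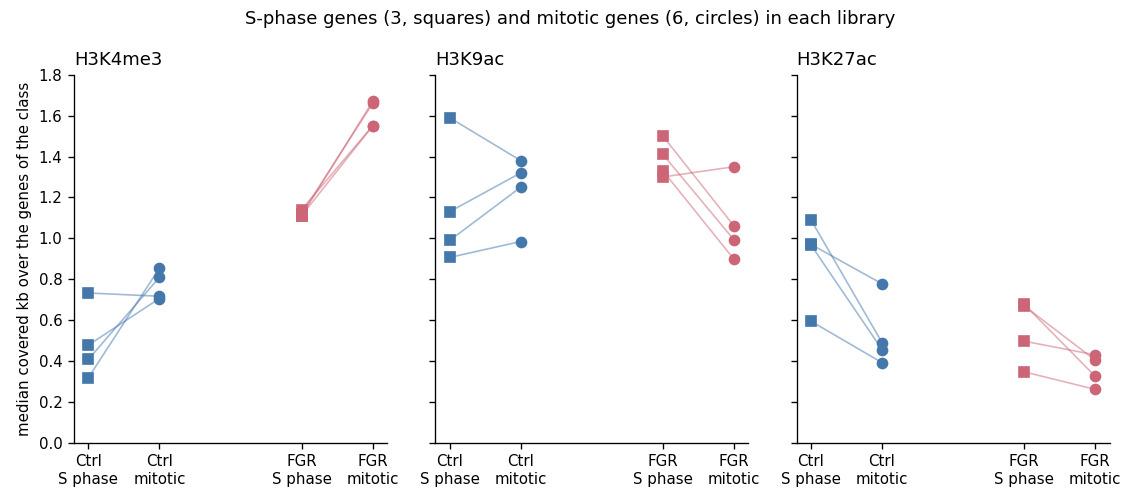
Median covered kb over the 3 S-phase genes (squares) and the 6 mitotic genes (circles), with a line joining the values of each library, for Ctrl (blue) and FGR (red). The lines rise toward mitosis for H3K4me3 in all but 1 Ctrl library, fall for H3K27ac in all 8 libraries, and fall for H3K9ac in 1 Ctrl library and 3 FGR libraries.

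H3K9me3 was nearly absent around these genes. In the broad lists of replicates 1 to 3, Mcm2, Mcm5, Pcna, Ccnb1, Plk1, Top2a and Mki67 were at 0 kb in all 6 libraries, and all 10 genes were at 0 in the narrow lists of replicate 4. Cdk1 was covered over 1.76, 0.757 and 0 kb in Ctrl and 0 kb in each FGR library (adjusted p = 0.157, and 0.0296 without Ctrl replicate 3), and so entered the fit through Ctrl alone. Its calls lay mainly upstream of the start, with the authors' fold enrichment of 1.61 in replicate 1 and 1.69 in replicate 2. Ccnd1 had 0.247 kb and Ccna2 0.123 kb in Ctrl replicate 1 alone. Of the 10313 genes tested for this mark, 34.9% were called lower in FGR and 0.0873% higher. The Ctrl lists held 345501 to 492938 peaks and went down to a −log10 p of about 1, whereas the FGR lists held 15522 to 22903 peaks cut by q-value, and these thresholds cannot be told apart from the groups.

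A wider list of 72 cell cycle genes, of replication, G1 cyclins and kinases with E2F and RB factors, kinase inhibitors and mitosis, was read against all genes tested in the same way. H3K4me3 rose at 70 of 71 tested and fell at 0, with a median difference of 0.853 kb, beside 95.5% of all genes. The 70 include 5 genes at 0 kb in every Ctrl library, which met the filter through FGR alone and had to differ. Cdkn1c, which encodes the CDK inhibitor p57, is one of these, with 1.74 ± 0.16 kb in FGR. Ccnd3, which encodes cyclin D3, went from 1.12 ± 0.107 to 3.03 ± 0.159 kb (adjusted p = 8.32e-07). For H3K9ac 20 of 72 rose and 24 fell, which is 27.8% and 33.3%, close to 28.5% and 30% of all genes. The 20 include Cenpf, at 0 kb in every Ctrl library, which met the filter through FGR alone. Of the 4446 genes called higher among all genes, 1464 were likewise at 0 kb in every Ctrl library. Both cyclin E genes rose, Ccne1 from 0.806 ± 0.135 to 1.79 ± 0.0432 kb (adjusted p = 6.12e-05) and Ccne2 from 0.928 ± 0.208 to 1.97 ± 0.154 kb (adjusted p = 0.000242). Cdkn2c, which encodes the CDK4 and CDK6 inhibitor p18, fell from 3.41 ± 0.0588 to 2.05 ± 0.0805 kb (adjusted p = 8.48e-06), and Rbl2, which encodes the RB-family protein p130, from 2.43 ± 0.0538 to 0.897 ± 0.229 kb (adjusted p = 2.4e-05).

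By role, and against those 28.5% higher and 30% lower, H3K9ac rose at 7 and fell at 10 of 22 replication genes, rose at 5 and fell at 2 of 13 G1 and E2F/RB genes, rose at 3 and fell at 2 of 7 inhibitors, and rose at 5 and fell at 10 of 30 mitosis genes. H3K27ac fell at 44 of the 63 tested, which is 69.8% where 81.6% of all genes were called lower, and rose at 0. The 44 include Ccnb2 and Pola1, at 0 kb in every FGR library, which met the filter through Ctrl alone. Ccnd3 went from 3.18 ± 0.204 to 1.34 ± 0.234 kb (adjusted p = 7.79e-06) and Rpa2, a subunit of the single-strand binding protein RPA, from 4.07 ± 0.203 to 2 ± 0.317 kb (adjusted p = 8.52e-06). The fall was called at 13 of 20 replication genes, 10 of 11 G1 and E2F/RB genes, 5 of 6 inhibitors and 16 of 26 mitosis genes, so the share was 65% for replication and 61.5% for mitosis, both below that of all genes, and 90.9% for G1 and E2F/RB genes, above it; these differences were not tested. For H3K9me3, 21 of the 22 genes tested were at 0 kb in every FGR library of replicates 1 to 3 and so entered the fit only through the far longer Ctrl lists. The fit called 8 of the 22 lower (36.4%, beside 34.9% of all genes), 7 of them among those 21, and this count is a description. Cdkn1a, the p53 target that encodes p21, had 1.89 ± 0.217 kb in Ctrl and Bub1, a kinase of the spindle checkpoint, 1.07 ± 0.229 kb (SD, n = 3), with 0 kb in FGR.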

How the data were processed

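Each of the 32 libraries had 1 deposited peak list laid out as MACS2 writes it, with peak coordinates and 4 values made by the authors. Per the submitters' processing notes, the tools included MACS2 2.2.7.1, Bowtie2 2.4.5, Trim Galore 0.6.5, DiffBind 3.12.0 and SAMtools 1.3.1, with mm10 as build. Their roles, order and options are not stated in what was used here. The deposited fold enrichment of a peak is a ratio over local background. The −log10 of the p-value and of the q-value, both deposited, and the authors' whole-number score, which follows one of them, were used only to rank or filter peaks within a list or to describe a peak. H3K9me3 lists of replicates 1 to 3 were broad and those of replicate 4 narrow, so only replicates 1 to 3 entered its test. Input libraries were not used here.

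Covered kb within 2.5 kb of either end was computed for 21631 protein-coding genes of RefSeq GRCm38.p6, the assembly behind mm10; strand came from RefSeq promoters for 17274. Genes with a peak in at least 2 libraries of a mark were compared by limma 3.58.1 (lmFit, eBayes; R 4.3.3), two-sided and unpaired. P-values were adjusted by Benjamini and Hochberg's method across every gene in the test, and 0.05 was the threshold. Every adjusted p is from this limma test. The procedure was tested on simulated data with normal noise and known shifts. A shift of 0.5 kb was recovered in 52% of cases for H3K4me3, 26% for H3K9ac and 12% for H3K27ac, and 1 kb in 86%, 50% and 76%. False calls made up 6.63%, 3.52% and 7.1% of all calls. Far fewer genes were shifted than were called in the data (for H3K4me3, 95.5% of the 14043 tested), so the adjusted threshold was stricter in the simulation. These shares therefore describe the simulated setting and cannot be carried over to the fits of the data. A gene that did not pass may still differ by such lengths. Summit pileup and background were solved from fold and −log10 p of narrow peaks. Alternatives were quantile normalization, lists of equal length, a −log10 threshold of 5, a window of 1 kb, the 5′ end alone, a minimum of 1 library, a replicate block and leaving out each library. All 10 genes were named for every mark; of the wider list, for each mark and direction the 2 genes with the smallest p among those called; and for each of the 10 genes the merged peak region at its start, or at the end with more coverage where no strand was matched. The genes, lists and motifs were chosen with earlier results of these data known.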

Additional observations from a re-analysis of the deposited data

Results flagged for a closer look

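In 8 of 60 groups of 4 libraries, 1 library stood apart from the others by Dixon's test at the 95% level, where chance gives about 1 in 20. For H3K4me3, Mcm5 had 1.07 kb in Ctrl replicate 1 against 0.314 to 0.407 kb in the other Ctrl libraries, Mcm2 had 0.94 kb in FGR replicate 3 against 1.04 to 1.06 kb, Ccna2 had 1.08 kb in FGR replicate 1 against 1.38 to 1.44 kb, and Top2a had 1.6 kb in FGR replicate 3 against 1.31 to 1.33 kb. For H3K9ac, Cdk1 had 1.96 kb in FGR replicate 2 against 0.985 to 1.1 kb. For H3K27ac, Plk1 had 0.267 kb in Ctrl replicate 3 against 0 kb in the rest, Mcm2 had 0.676 kb in FGR replicate 1 against 0.34 to 0.367 kb, and Ccnb1 had 0 kb in FGR replicate 2 against 0.189 to 0.205 kb. No single library accounts for more than 2 of the 8 values.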

How the results depend on the processing

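Over 31 gene and mark results, 410 of 453 alternative values kept direction and side of the threshold, 15 newly passed, 14 no longer passed and 14 changed direction; the cause was not tested. Quantile normalization left H3K4me3 higher at 2 and lower at 1 of the 10 genes (2220 and 3398 of all genes) and H3K27ac lower at 2 (1488 of all genes higher and 1344 lower). It turned H3K4me3 differences to -0.17 kb at Mcm2, -0.312 at Mcm5, -0.155 at Cdk1, -0.183 at Plk1, -0.413 at Top2a and -0.108 at Mki67, and H3K27ac differences to 0.0745 at Mcm2, 0.225 at Mcm5, 0.229 at Ccna2, 0.102 at Top2a and 0.0604 at Mki67. For H3K9ac, Ccna2 turned to -0.354 kb with the 1 kb window and Mki67 to 0.46 kb with the stricter threshold; Ccnb1 H3K27ac ran from -0.007 kb without Ctrl replicate 2 to 0.0943 kb without Ctrl replicate 3.

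Over all genes, H3K4me3 was lower at 168 with lists of equal length and 1 with the 5′ end alone, where H3K9ac was higher at 2829. H3K27ac was higher at 6 with equal lists, 6 with the stricter threshold and 6 with the 5′ end alone. H3K9me3 was higher at 332 and lower at 835 after quantile normalization, 53 and 21 with equal lists, 36 and 0 with the stricter threshold, 5 and 1347 with the 1 kb window, lower at 1251 with the 5′ end alone, and 0 and 0 with all 4 replicates. Equal lists, the stricter threshold and the 1 kb window gave no H3K9me3 value for the 10 genes.

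Leaving out 1 library at a time gave 13116 to 13328 genes higher and 0 to 1 lower for H3K4me3, 3804 to 4821 and 4217 to 4785 for H3K9ac, 9 to 27 and 8941 to 9544 for H3K27ac, and 5 to 17 and 1518 (without FGR replicate 2) to 6400 (without Ctrl replicate 3) for H3K9me3. Among the 10 genes it gave 10 higher for H3K4me3, 3 to 4 higher and 3 to 4 lower for H3K9ac, 0 to 1 higher and 4 to 7 lower for H3K27ac, and 0 to 1 lower for H3K9me3.

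Across genes, libraries with the same replicate number hardly deviated together (r from -0.021 to 0.034), and the main fit was left unpaired. Replicate 4 had the shortest list in both groups for H3K9ac (42220 peaks in Ctrl and 54853 in FGR) and for H3K27ac (45988 and 53492). These correlations cannot exclude something shared by the libraries of replicate 4, and its part in the results was not tested. With the replicate number as a block, H3K27ac was higher at 0 of the 10 genes, since Plk1 had an adjusted p of 0.0544, and at 16 of all genes against 22; no other call among the 10 genes changed. Depth is unknown, and covered length cannot show changes in height within a called peak.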
